A study of Mus musculus with 12 samples.

Results

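The CLK kinases and their SR protein substrates are represented here by 10 genes, chosen by symbol out of 56691 mouse gene IDs in the count tables: the 4 kinase genes Clk1, Clk2, Clk3 and Clk4, and the 6 SR protein genes Srsf1, Srsf2, Srsf3, Srsf5, Srsf6 and Srsf7. The set was drawn up knowing that Clk1 was higher at both doses of an MRE11 inhibitor. Differences of the members between inhibitor and 2i alone are therefore given as a description, with levels and errors and without printed p-values. Calls at p thresholds are stated for them too, and nothing is read from those calls. All 10 members were found and all 10 passed the low-count filter, among 13230 genes that did.

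CLK kinases sit in the nucleus, where they phosphorylate the arginine-serine-rich tails of SR proteins and release them from nuclear speckles. SR proteins then bind exonic enhancers and recruit the spliceosome to neighbouring splice sites. Transcripts of both families are known in mammals for retained introns and for exons with premature stops, through which the cell limits its own supply of these proteins.

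The cells were of the R1 line, male embryonic stem cells of the mouse strain 129 kept on gelatin, and the libraries were made with QuantSeq 3′ mRNA sequencing, which counts the 3′ ends of polyadenylated transcripts. The 4 groups, of 3 libraries each, were cells labelled primed, grown in serum with LIF and taken at day 0, and cells after 6 days of 2i alone, of 2i with 25 µM, or of 2i with 50 µM of an MRE11 inhibitor that the labels do not name. 2i blocks the kinases MEK and GSK3, and MRE11 is a nuclease that acts at DNA breaks and replication forks. Without a day-6 group in serum, 2i cannot be told apart from time in culture. The labels do not say whether a group's 3 libraries were separate cultures, and the p-values cover only the spread among those libraries, possibly a technical one.

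Library totals ranged from 5894561 to 7060126 counts. The level of 10 embryonic stem cell markers was summed in CPM, counts scaled to a common library size. The sum ran from 5147 to 5804 over the 12 libraries, with overlap between all groups. Single markers moved both ways. Nanog had 1130, 1315 and 1103 CPM in 2i, against 494, 562 and 594 CPM in primed cells. Utf1 had 89.8, 62.9 and 56.8 CPM in 2i, against 324.5, 372.9 and 355.5 CPM in primed cells. By edgeR at an adjusted p below 0.05, 2 of the 10 were higher and 3 lower in 2i than in primed cells. Of all genes, 20.0% were called higher and 20.4% lower. At 50 µM against 2i alone 3 of the 10 were called higher and 1 lower, where 7.01% and 8.07% of all genes were. A list of 10 fibroblast and feeder-cell markers, of which 5 passed the filter, summed to 57.2 to 178 CPM in the primed libraries, to 15.65 to 27.95 CPM after 2i, to 7.81 to 10.4 CPM with 25 µM and to 5.22 to 6.96 CPM with 50 µM. Acta2 and Col1a1 made up most of the sum in primed cells, while Dcn and Lum were at 0 in 11 of the 12 libraries each. The sum of 7 trophoblast markers was 248 to 423 CPM in primed cells, 129 to 180 CPM after 2i, 120 to 153 CPM with 25 µM and 88.3 to 122 CPM with 50 µM. Tfap2c made up most of it in 2i alone and at the 2 doses, with means of 130, 120.5 and 87.1 CPM. Of the 5 that passed the filter, Eomes alone had a higher mean at 50 µM than in 2i alone (6.95 against 4.29 CPM). The endoderm sum was 5.07 to 5.67 CPM at 50 µM, against 8.29 to 8.98 CPM in 2i alone, and the neuroectoderm sum 77.8 to 100.3 CPM in 2i alone, against 125 to 137 CPM in primed cells. Most of the neuroectoderm sum was Tubb3, with means of 63.3 CPM in 2i alone and 91.9 CPM in primed cells. Sox1 and Nes had higher means in 2i alone than in primed cells. At 50 µM, where the CLK genes below were higher than in 2i alone, the fibroblast, trophoblast and endoderm sums were lower. Their part in the results was not tested. Of the 5 fibroblast markers that passed the filter, Twist1 alone had a higher mean at 50 µM than in 2i alone (2.71 against 1.37 CPM). Only 2 of the 8 endoderm markers passed the filter. Of these, Gata4 was higher at 50 µM (1.765 against 1.17 CPM) and Dab2 lower (1.73 against 2.69 CPM). Fewer cells of a type and less RNA per cell cannot be told apart in bulk libraries.

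All 4 CLK genes had a higher mean at 50 µM than at 25 µM, and a higher mean at 25 µM than in 2i alone. Clk1 encodes a kinase of SR proteins whose own pre-mRNA is known to be stored with retained introns (ENSMUSG00000026034; GRCm38 chromosome 1, 58410189 to 58424066, minus strand). It had 83.4, 73.9 and 79.4 CPM in the libraries of 2i alone, 132, 105 and 96.6 CPM at 25 µM and 139, 106 and 114 CPM at 50 µM. Every library of either dose lay above every library of 2i, while the libraries of the doses overlapped. The change of Clk1 against 2i was 0.49 ± 0.12 on the log2 scale (± SE, edgeR) at 25 µM and 0.60 ± 0.12 at 50 µM, or 1.41-fold and 1.51-fold.

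Clk4, the closest paralogue of Clk1 (ENSMUSG00000020385; chromosome 11, 51261730 to 51281766, plus strand), had the largest change of the 10 members at both doses. It had 29.3, 28.9 and 33.4 CPM in 2i alone, 60.2, 47.0 and 45.0 CPM at 25 µM and 65.7, 61.0 and 52.9 CPM at 50 µM. Neither dose overlapped with 2i. Its log2 change against 2i was 0.73 ± 0.13 at 25 µM (1.66-fold) and 0.97 ± 0.13 at 50 µM (1.96-fold).

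Clk3 (ENSMUSG00000032316; chromosome 9, 57750624 to 57765860, minus strand) had 44.5, 47.9 and 42.9 CPM in 2i alone, 67.4, 61.5 and 65.2 CPM at 25 µM and 79.3, 96.7 and 76.4 CPM at 50 µM. The 3 sets of libraries did not overlap with each other. The log2 change of Clk3 against 2i was 0.52 ± 0.11 at 25 µM and 0.90 ± 0.11 at 50 µM, the larger of these being 1.87-fold. The 3′ end of Clk3 lies within Edc3, an mRNA decapping gene on the opposite strand, with 1876 bases in common. Of the 50-base stretches in the last 500 bases of Clk3's coding transcripts, 41.2% occur in Edc3 transcripts in the antisense direction, and it is not known whether the counting used strand. Edc3 itself had 37.7, 40.9 and 40.8 CPM at 50 µM, against 33.2, 32.7 and 40.2 CPM in 2i alone, a log2 change of 0.17 ± 0.11 with overlapping libraries.

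Clk2 (ENSMUSG00000068917; chromosome 3, 89164795 to 89176921, plus strand) had 22.7, 25.0 and 26.3 CPM in 2i alone, 29.3, 26.0 and 30.0 CPM at 25 µM and 29.8, 35.6 and 41.4 CPM at 50 µM. At 25 µM its libraries overlapped with 2i, and at 50 µM they did not. Its log2 change against 2i was 0.21 ± 0.13 at 25 µM and 0.53 ± 0.13 at 50 µM.

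**Figure D1:**
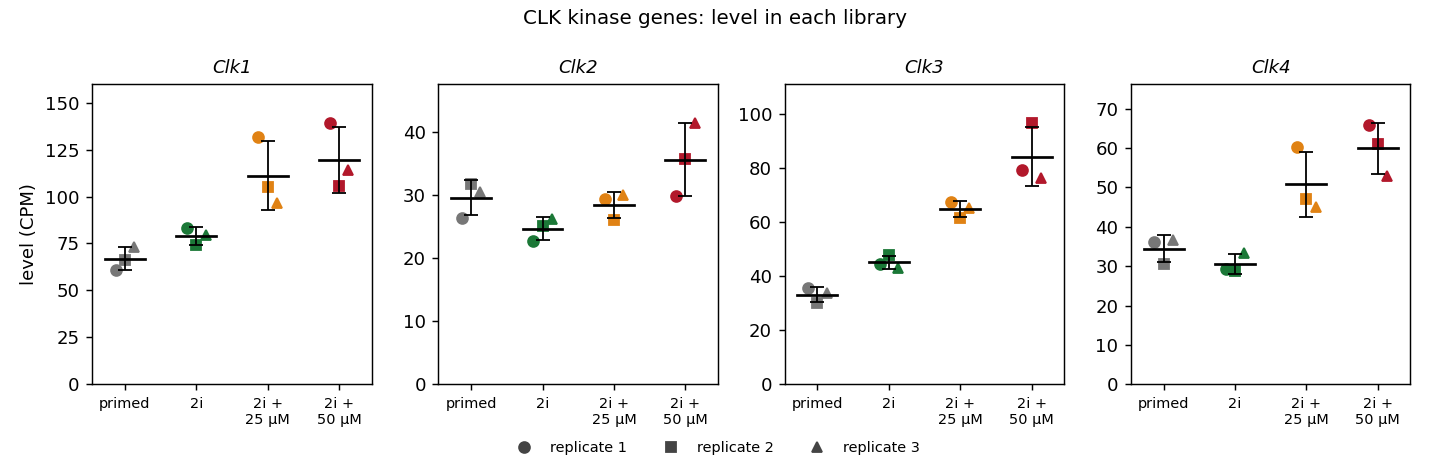
Level of the 4 CLK genes in CPM (y axis, from 0) in each of the 12 libraries, by group (x axis), with the marker shape giving the replicate number and black bars the mean ± SD of 3 libraries. All 4 genes have their highest mean at 50 µM, from 35.6 CPM for Clk2 to 120 CPM for Clk1.

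At an edgeR adjusted p below 0.05, 3 of the 10 members were called higher at 25 µM than in 2i (Clk1, Clk3 and Clk4) and none lower, where 0.454% of all genes tested were called higher and 0.484% lower. At 50 µM, 4 of 10 were called higher (the 4 CLK genes) and none lower, where 7.01% of all genes were called higher and 8.07% lower. These 2 comparisons share the 2i libraries and include the contrast by which the set was chosen, so nothing is read from the counts. With library totals as the only scaling, 36 genes were called higher and 77 lower at 25 µM, and 559 higher and 1294 lower at 50 µM, against 60 and 64, and 927 and 1067, with TMM scaling. Clk1 at 25 µM was not called with library totals, RLE scaling, limma voom or the fit of those 2 groups only. The 3 calls at 25 µM became 1, that of Clk4, whichever of the 6 libraries was left out, and the 4 at 50 µM became 3 without 50 µM replicate 3, when Clk2 was not called. With the replicate number as a block, 3 members were called higher at 25 µM (2.48% of all genes) and 6 at 50 µM (12.1% of all genes), the additional ones being Srsf5 and Srsf6.

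The choice of members did not name the comparison of 50 µM with 25 µM, but it used the level of Clk1 in these same libraries. Here edgeR called none of the 10 in either direction, while 0.181% of all genes were called higher and 0.975% lower. With no adjustment 2 members, Clk2 and Clk3, passed 0.05, both higher, and DESeq2 and limma voom called none. Clk3 came nearest, with a log2 difference of 0.38 ± 0.10 (edgeR adjusted p = 0.0825), and all 3 of its libraries at 50 µM lay above all 3 at 25 µM. With the replicate block the value for Clk3 was 0.38 ± 0.09 (edgeR adjusted p = 0.0101), which made it 1 member called higher where 1.27% of all genes were. Clk2 differed by 0.33 ± 0.13 (edgeR adjusted p = 0.287) and Clk4 by 0.24 ± 0.12 (edgeR adjusted p = 0.45). As a description, for Clk1 the 95% interval of the difference ran from −0.14 to 0.35 on the log2 scale.

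The promoters of Clk2, Clk3 and Clk4 are shown because these genes were higher together at 50 µM. RefSeq windows of build GRCm38.p6, from 250 bases before to 50 after the gene start as RefSeq places it, were found for 9 of the 10 members, and Clk1 was not among them. By the gene coordinates given above, the bases printed here for Clk3 and Clk4 lie within the gene, and those for Clk2 directly before it. The 250 bases before the start are printed 5′ to 3′ along the gene's strand, with TGACG or its complement CGTCA, the core of the cyclic AMP response element bound by CREB and ATF factors, in capitals.
Clk2 (chr3:89164545-89164794, plus strand): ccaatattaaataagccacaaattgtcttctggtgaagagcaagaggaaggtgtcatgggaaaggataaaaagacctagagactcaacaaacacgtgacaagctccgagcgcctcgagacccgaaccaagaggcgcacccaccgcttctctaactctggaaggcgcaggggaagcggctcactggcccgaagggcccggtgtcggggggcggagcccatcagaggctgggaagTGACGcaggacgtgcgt
Clk3 (chr9:57765115-57765364, minus strand): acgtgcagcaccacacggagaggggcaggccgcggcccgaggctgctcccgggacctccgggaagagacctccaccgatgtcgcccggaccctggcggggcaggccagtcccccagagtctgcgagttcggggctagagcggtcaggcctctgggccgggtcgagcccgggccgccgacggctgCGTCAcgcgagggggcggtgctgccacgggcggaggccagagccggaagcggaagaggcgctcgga
Clk4 (chr11:51262864-51263113, plus strand): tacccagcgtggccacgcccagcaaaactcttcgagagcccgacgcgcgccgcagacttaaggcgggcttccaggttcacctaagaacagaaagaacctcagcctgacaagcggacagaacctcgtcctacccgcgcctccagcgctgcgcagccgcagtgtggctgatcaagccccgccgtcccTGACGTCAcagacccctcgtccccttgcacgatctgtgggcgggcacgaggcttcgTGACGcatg

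The capitals begin 17 bases before the start in Clk2, 66 before it in Clk3, and 65 and 9 before it in Clk4, where the core at −65 overlaps a reverse copy at −62 to give the full palindrome TGACGTCA. On either strand TGACG was in the 300-base window of 8 of the 9 members, all but Srsf7, and in 20.8% of 32851 windows of all genes. The full palindrome was in the window of Clk4 alone among the 9, and in 1.79% of all windows. The core was in the windows of 5 SR genes and of the 3 CLK genes in the table.

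The same windows were searched on both strands for the GC box GGGCGG (8 of 9 members, 35.7% of all windows), CCAAT (4 of 9, 37.4%), the ETS core CCGGAAG (3 of 9, 8.86%), the NRF1 core GCATGCGC (Clk4 and Srsf7, 2.71%), TATAAA (Srsf2 and Srsf3, 13.6%), the E box CACGTG (Clk2, 7.15%) and the heat shock element core GAANNTTC (0 of 9, 7.86%). The member windows were rich in G and C, with 56.0% to 74.7% and 20 to 45 CpG pairs, against a median of 52.7% and 7 pairs over all windows. TGACG and GGGCGG both hold a CpG, and the part of base composition in these shares was not tested. A match here is a run of letters, not a measured binding site.

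Against 2i alone, edgeR called none of the 6 SR protein genes at either dose without the replicate block. At 50 µM 1 of them, Srsf6, passed 0.05 without adjustment, at 25 µM none did, and DESeq2 and limma voom called none at either dose. Srsf1, an SR protein that also takes part in mRNA export (ENSMUSG00000018379), stayed between 566 and 676 CPM over all 12 libraries. Srsf3, the smallest of the classical SR proteins (ENSMUSG00000071172), ranged from 599.8 to 755 CPM. Srsf2, a nuclear-retained SR protein of speckles (ENSMUSG00000034120), ranged from 582 to 738 CPM, and Srsf7, which carries a zinc knuckle (ENSMUSG00000024097), from 355 to 431 CPM. Against 2i alone, these 4 genes changed by −0.07 to 0.06 at 25 µM and by −0.05 to 0.10 at 50 µM on the log2 scale, each with an SE of 0.08 to 0.10. Each of them overlapped between 50 µM and 2i, and Srsf3 alone lay above 2i in all 3 libraries at 25 µM.

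Srsf6 (ENSMUSG00000016921; chromosome 2, 162931528 to 162937121), an SR protein with a pair of RNA recognition motifs, had 296, 277 and 278 CPM in 2i alone, 335, 325 and 288 CPM at 25 µM and 345, 321 and 312 CPM at 50 µM. Its 50 µM libraries lay above those of 2i, and its 25 µM libraries overlapped with them. The log2 change was 0.16 ± 0.09 at 25 µM and 0.20 ± 0.09 at 50 µM. With the replicate block it was 0.16 ± 0.07 and 0.20 ± 0.07.

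Srsf5 (ENSMUSG00000021134; chromosome 12, 80945504 to 80950507), an SR protein first found as an insulin-induced liver transcript in the rat, had 227, 165 and 169 CPM in 2i alone, 234, 194 and 152 CPM at 25 µM and 240, 223 and 183 CPM at 50 µM. The 3 groups overlapped, and the log2 change against 2i was 0.05 ± 0.17 at 25 µM and 0.20 ± 0.17 at 50 µM. With the replicate block it was 0.04 ± 0.08 and 0.21 ± 0.08. Replicate 1 had the highest Srsf5 of its group in all 4 groups. It had the highest Clk1, Srsf2, Srsf3 and Srsf6 in 3 groups each. Without the block the SE of the changes of Srsf5 was 0.17, against 0.08 to 0.10 for the other 5 SR genes.

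**Figure D2:**
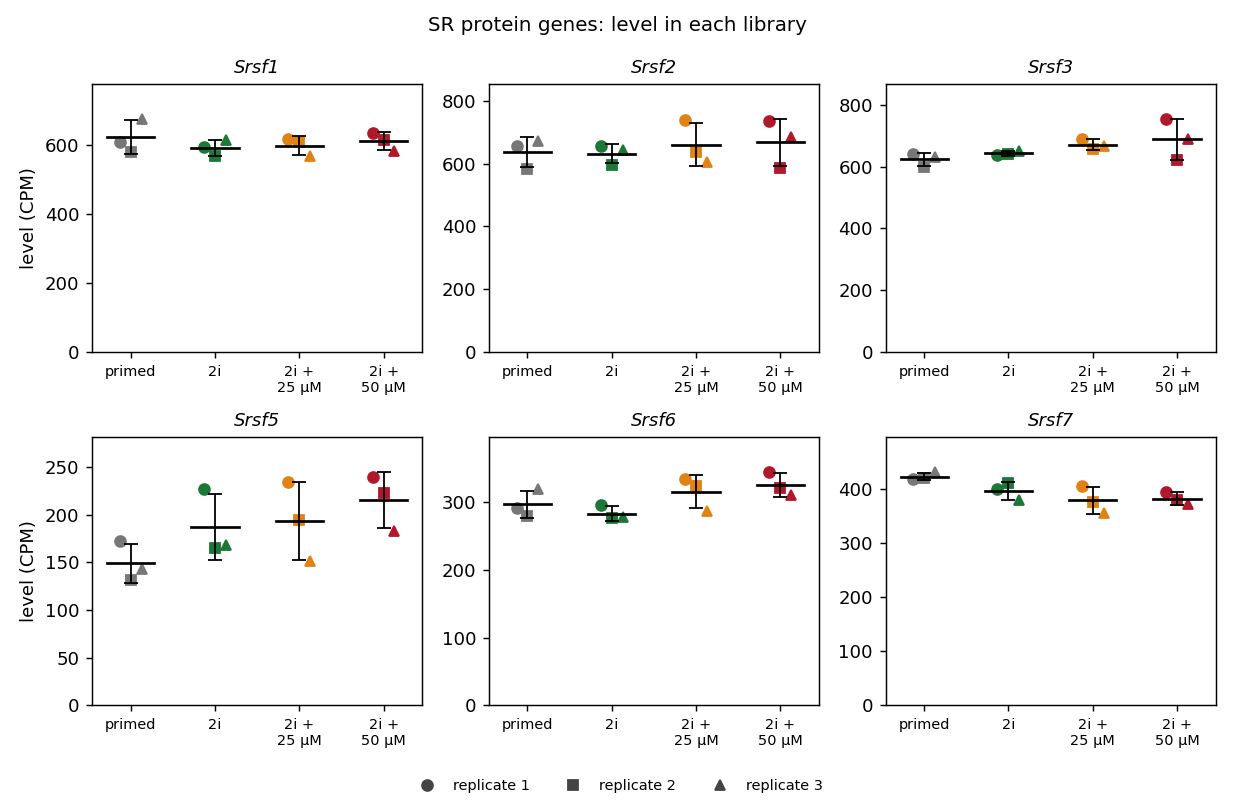
Level of the 6 SR protein genes in CPM (y axis, from 0) in each of the 12 libraries, by group (x axis), with marker shapes for the replicate number and black bars for the mean ± SD of 3 libraries. Replicate 1 is the highest Srsf5 library in each of the 4 groups, and Srsf1, Srsf2, Srsf3 and Srsf7 overlap between 50 µM and 2i.

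The median log2 change of the 4 CLK genes was 0.51 at 25 µM and 0.75 at 50 µM, and that of the 6 SR genes 0.05 and 0.09, where the median over all 13230 genes was 0.00 and 0.01. The members' values are set side by side with those of 2i against primed cells in the plot of changes.

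**Figure D3:**
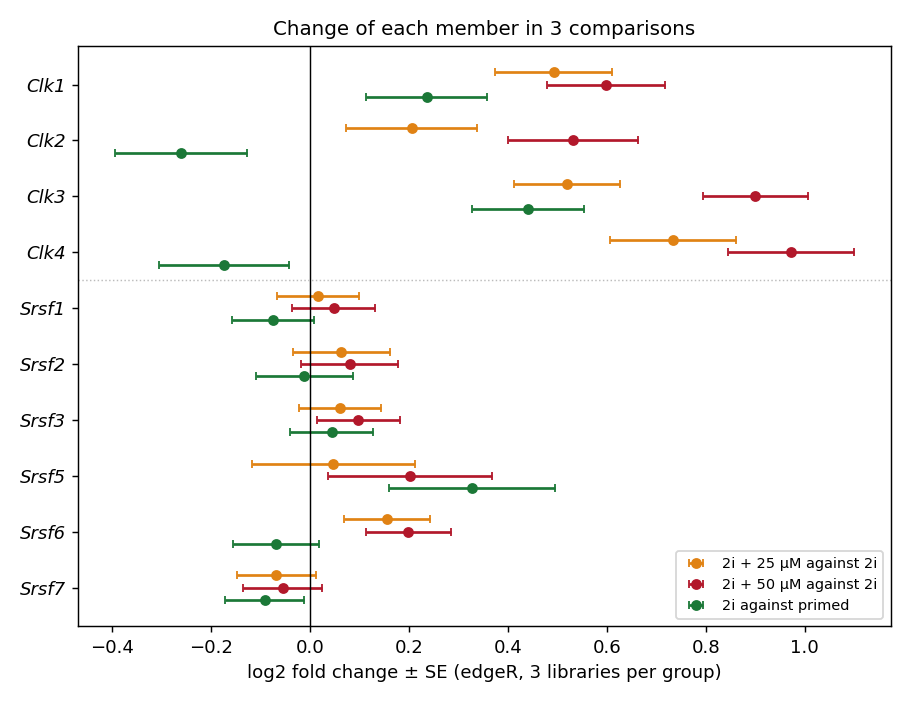
Log2 fold change ± SE of each member (rows) from edgeR, for 2i with 25 µM against 2i, 2i with 50 µM against 2i, and 2i against primed (colours), with 3 libraries per group. The 4 CLK genes lie at 0.53 to 0.97 in the 50 µM comparison, and the 6 SR genes at −0.05 to 0.20.

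The choice of members did not name the comparison of 2i without inhibitor and primed cells, but it used the level of Clk1 in the 2i libraries. Of the 10 members edgeR called 1 higher, Clk3, and none lower, where 20.0% of all genes were called higher and 20.4% lower. Clk3 had 44.5, 47.9 and 42.9 CPM in 2i, against 35.7, 30.3 and 33.7 CPM in primed cells. These libraries did not overlap, and the log2 change was 0.44 ± 0.11 (edgeR adjusted p = 0.00321).

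Clk1 had 83.4, 73.9 and 79.4 CPM in 2i, against 61.1, 66.4 and 73.4 CPM in primed cells. The lowest 2i library lay just above the highest primed one, and the log2 change of 0.24 ± 0.12 was not called (edgeR adjusted p = 0.131). Clk2 was at −0.26 ± 0.13 (edgeR adjusted p = 0.127) and Clk4 at −0.17 ± 0.13 (edgeR adjusted p = 0.315). Clk2 had 22.7, 25.0 and 26.3 CPM in 2i, all below the 26.4, 31.8 and 30.5 CPM of primed cells. Clk4 overlapped, with 29.3, 28.9 and 33.4 CPM in 2i, against 36.1, 30.4 and 36.6 CPM in primed cells.

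With the low-count filter, all 12 libraries and no replicate block, edgeR called none of the 6 SR genes between 2i and primed cells. None had an unadjusted p under 0.05 there, and DESeq2 and limma voom called none. Srsf5 had 227, 165 and 169 CPM in 2i, against 172, 132 and 144 CPM in primed cells, a log2 change of 0.33 ± 0.17 (edgeR adjusted p = 0.138, 95% interval −0.03 to 0.69). It was called in 3 of 15 alternative settings, among them the replicate block (edgeR adjusted p = 0.00107) and the fit with no low-count filter (edgeR adjusted p = 0.00348). Without replicate 1 of all 4 groups, chosen for removal after seeing its high values, the change was 0.29 (edgeR adjusted p = 0.0492). For the other 5 SR genes the 95% intervals of the change all lay between −0.26 and 0.22 on the log2 scale.

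Against primed cells, each inhibitor dose includes the 2i change. Clk1, whose level at the doses chose the set, is left out of these counts. At 25 µM 2 of the other 9 members were called higher (Clk3 and Clk4) and none lower, where 21.3% of all genes were called higher and 21.0% lower. At 50 µM 3 of the 9 were called higher, Clk3, Clk4 and Srsf5, and none lower, where 22.6% of all genes were called higher and 21.7% lower. Clk3, at 79.3, 96.7 and 76.4 CPM, against 35.7, 30.3 and 33.7 CPM in primed cells, changed most, by 1.34 ± 0.11 on the log2 scale or 2.53-fold (edgeR adjusted p = 2.13e-09). Clk4 rose by 0.80 ± 0.13 at 50 µM (edgeR adjusted p = 2.18e-05). As a description, Clk1 was 0.73 ± 0.12 higher at 25 µM and 0.84 ± 0.12 higher at 50 µM on the log2 scale.

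Srsf5 rose at 50 µM to 240, 223 and 183 CPM, against 172, 132 and 144 CPM in primed cells, with no overlap. Its log2 change was 0.53 ± 0.17 (edgeR adjusted p = 0.0188), and this call was lost without primed replicate 2 (0.0657), primed replicate 3 (0.0587), 50 µM replicate 1 (0.0699) or 50 µM replicate 2 (0.052). At 25 µM Srsf5 was at 0.38 ± 0.17 against primed cells (edgeR adjusted p = 0.0866) and was called in 6 of 15 alternative settings. Srsf7 was the only member of the 10 whose libraries at both doses lay below all 3 primed libraries. It had 406, 376 and 355 CPM at 25 µM and 394, 380 and 372 CPM at 50 µM, against 417, 420 and 431 CPM in primed cells. In 2i alone Srsf7 had 399.9, 411.8 and 378.6 CPM, also below all 3 primed libraries and overlapping with both doses. Against primed cells its log2 change was −0.16 ± 0.08 at 25 µM (edgeR adjusted p = 0.119, DESeq2 adjusted p = 0.0466) and −0.15 ± 0.08 at 50 µM (edgeR adjusted p = 0.148).

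The group means of Clk1, Clk3, Srsf3 and Srsf5 had the same order, lowest in primed cells, then 2i, 25 µM and 50 µM. For Clk1 the mean ± SD (n = 3) was 66.9 ± 6.17 CPM for primed cells, 78.9 ± 4.74 for 2i, 111 ± 18.3 with 25 µM and 120 ± 17.5 with 50 µM, and the neighbours at 25 and 50 µM did not differ beyond their spread. For Clk2 and Clk4 the lowest group was 2i alone, at 24.7 ± 1.81 and 30.5 ± 2.49 CPM. Clk2 at 25 µM (28.4 ± 2.11 CPM) was within the spread of primed cells (29.6 ± 2.8 CPM), whereas Clk4 at 25 µM (50.7 ± 8.27 CPM) lay above all primed libraries (34.4 ± 3.42 CPM).

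The 3′ counts cannot show which forms of these transcripts were made. GENCODE M21 annotates 94 transcripts for the 10 genes, of which 31 are coding, 36 are retained-intron forms, 16 are marked for nonsense-mediated decay, the pathway that destroys mRNAs with premature stops, and 11 are other processed transcripts. Clk1 has 1 coding form beside 7 retained-intron and 2 decay forms, and Clk4 has 4 coding beside 7 and 3. Of the 52 retained-intron and decay forms, 12 end within 100 bases of their gene's last coding 3′ end, 3 of them in Clk1, 2 in Clk2, 2 in Clk3, 2 in Srsf2 and 3 in Srsf5. A higher count can thus come from coding or from non-coding forms. Srsf2 lies wholly within Mettl23, a gene on the opposite strand that had 15.8 to 24.6 CPM, and 63.3% of the 50-base stretches near its 3′ end occur there in the antisense direction. For the 8 members other than Clk3 and Srsf2, no such stretch was found in transcripts of another gene in either direction.

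Genes with a pattern like that of Clk1 were sought by the root mean square difference of centred log2 CPM over the 12 libraries. The 8475 other genes compared had a log2 CPM averaging 3 or more, a symbol, and no predicted-gene name (Gm or Rik). The nearest was Uhrf1, which recruits the maintenance DNA methyltransferase to replicated DNA, with a difference of 0.13, where the median over all genes compared was 0.398. Uhrf1 averaged 108 ± 0.94 CPM for primed cells, 134 ± 6.62 for 2i, 193 ± 14.5 with 25 µM and 205 ± 20.9 with 50 µM (SD, n = 3). Timeless, a component of the replication fork protection complex, came next at 0.131, followed by Vps26c, a subunit of an endosomal sorting complex, at 0.136, and AU022252 and the zinc finger gene Zfp961, both at 0.141. Clk4 was the nearest member at 0.198, in place 98, followed by Srsf5 at 0.256 and Clk3 at 0.263, and Srsf7 was the farthest at 0.415.

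**Figure D4:**
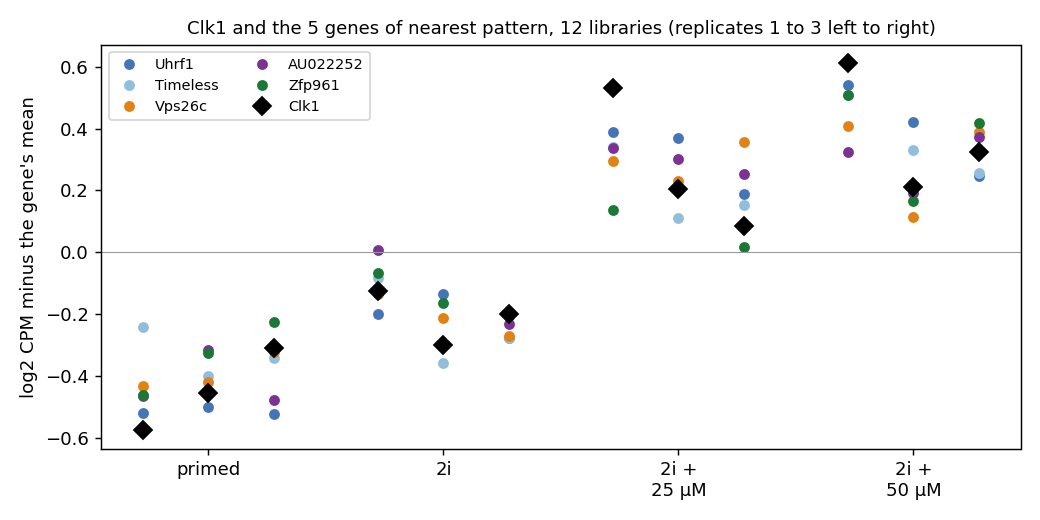
Log2 CPM minus each gene's mean over 12 libraries (y axis) for Clk1 (black diamonds) and the 5 genes nearest to it in pattern (coloured points), by group (x axis) with replicates 1 to 3 from left to right. All 6 genes lie below their mean in primed cells and above it at both doses.

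Other splicing genes were taken from 8 lists, whose counts at 50 µM against 2i stand beside 7.01% of all genes called higher and 8.07% lower. Of 7 other SR proteins (Srsf4, Srsf9, Srsf10, Srsf11, Srsf12, Tra2a and Tra2b), edgeR called none at 50 µM against 2i, 1 (Srsf4) passed 0.05 without adjustment, and DESeq2 and limma voom called none. Their median log2 change was −0.01. Of 13 other kinases of SR proteins and splicing, among them the SRPK and DYRK kinases, edgeR, DESeq2 and limma voom called none at 50 µM, while 1 was up and 1 down at p under 0.05 without adjustment, and the median was 0.01. Dyrk1a, which had the smallest p of these, was at 0.23 ± 0.10. Of 22 SR-related proteins 2 were called higher (Rbm39, a splicing coactivator, at 0.34 ± 0.08, and the cyclin Ccnl2 at 0.29 ± 0.10) and 1 lower (Zranb2 at −0.38 ± 0.12), with a median of 0.08. Ccnl2 was not called by DESeq2 (adjusted p = 0.0708) or limma voom (adjusted p = 0.055).

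Among 31 hnRNP and related proteins, which often repress exons, 4 were called higher at 50 µM and none lower, with a median of 0.16. Taf15, an RNA-binding protein of the FET family, had 86.3, 90.7 and 76.4 CPM at 50 µM, against 56.5, 54.6 and 54.4 CPM in 2i alone, a log2 change of 0.61 ± 0.09. It was also the 1 list gene called higher at 25 µM, at 0.48 ± 0.09, and it had fallen by 0.65 ± 0.09 in 2i against primed cells (edgeR adjusted p = 6.21e-06). Hnrnpa1 (0.45 ± 0.14), Hnrnpul2 (0.27 ± 0.09) and Pcbp2 (0.25 ± 0.08) were the other calls. Hnrnpul2 was not called by DESeq2 (adjusted p = 0.0539), and the value of Hnrnpa1 is uncertain because the genome holds pseudogene copies of it.

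Of 35 core snRNP proteins 1 was called higher at 50 µM, Snrpb, a subunit of the Sm ring, at 0.28 ± 0.08. Of 16 factors of nonsense-mediated decay and the exon junction 1 was called higher, Magohb at 0.44 ± 0.13. Of 8 genes known for regulated retained introns 1 was called higher, Tia1, an RNA-binding protein of stress granules that also regulates splicing. It had 29.3, 32.2 and 31.3 CPM at 50 µM, against 18.1, 17.1 and 20.8 CPM in 2i alone, a log2 change of 0.73 ± 0.12. Of 14 heat and cold responsive genes 1 was called higher, the small heat shock gene Hspb1 at 0.35 ± 0.11, and 1 lower, the cold-inducible RNA-binding gene Cirbp at −0.62 ± 0.17. Cirbp had 29.2, 20.0 and 18.6 CPM at 50 µM, against 41.6, 31.7 and 30.6 CPM in 2i alone.

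**Figure D5:**
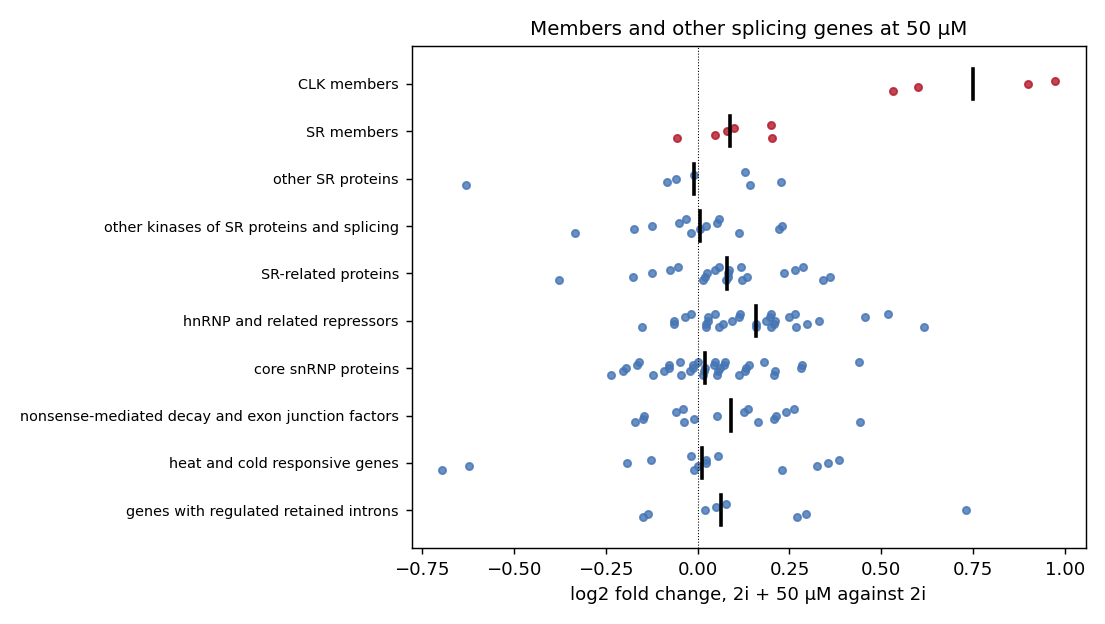
Log2 fold change of 2i with 50 µM against 2i alone (x axis) for each gene (points) of the CLK and SR members and of 8 lists of other splicing and stress genes (rows), with the median of each row as a black bar. The 4 CLK members lie at 0.53 to 0.97, and the row medians of the 8 lists lie between −0.01 and 0.16.

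In 2i against primed cells the same lists went both ways, with medians from −0.11 for core snRNP proteins to 0.18 for genes with regulated retained introns, beside −0.01 over all genes. The counts that follow stand beside 20.0% of all genes called higher and 20.4% lower. Of the core snRNP proteins 2 rose and 6 fell, among them Cdc5l (0.58 ± 0.10, edgeR adjusted p = 7.55e-05) and Sf3b6 (−0.40 ± 0.09, edgeR adjusted p = 0.00093). Of the SR-related proteins 5 rose and 1 fell, led by Rsrc1 (0.59 ± 0.09, edgeR adjusted p = 2.33e-05), and of the hnRNP list 1 rose, Ptbp3 (0.64 ± 0.08), and 4 fell. Of the kinases 3 rose and 3 fell, including Dyrk2, which fell by 1.07 ± 0.15 (edgeR adjusted p = 4.52e-06). Of the decay and exon junction factors 2 rose and 3 fell, with Smg1 at 0.68 ± 0.12 and Magohb at −0.95 ± 0.13. Of the heat and cold genes 4 rose and none fell, with Dnajb1 at 0.46 ± 0.10. Of the retained-intron genes 3 rose and none fell, with Ddx17 at 0.69 ± 0.10, and of the 7 other SR proteins none was called by edgeR, DESeq2 or limma voom or had an unadjusted p under 0.05.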

How the data were processed

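The 12 libraries were counted per gene by the authors, who deposited raw counts in 1 table per library. Per the submitters' processing notes, FastQC, STAR and DESeq2 1.32.0 were used with GRCm38 (mm10). The sources used here do not state the STAR version, counting tool, strand setting, annotation release or use of molecular identifiers. A count table of the whole series was not used here. Of 56805 features, 114 spike-ins with 2 counts in all were left out and 56691 mouse gene IDs kept, 52073 of them with a symbol.

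Genes were tested in R 4.3.3 with edgeR 4.0.16 (quasi-likelihood F test, TMM, filterByExpr, robust, all 12 libraries in 1 fit, Benjamini-Hochberg adjusted p below 0.05 over 13230 genes, no fold minimum). DESeq2 1.42.0, limma 3.58.1 voom, other scalings, no low-count filter, 2 groups only, a replicate block and leaving out libraries were alternatives. The SE is the size of the log2 fold change divided by the square root of F. The method was tested on simulated data drawn with no effect of the replicate number. That test does not cover the deviations that same-numbered libraries share. CPM used TMM-scaled library sizes, and log2 CPM a prior count of 2. Chi-square per degree of freedom between replicates was 2.63 to 13, above sampling noise, and each library counted as 1 replicate. In every group it was larger for the pairs with replicate 1 (9.78 to 13) than for replicates 2 and 3 (2.63 to 7.28).

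Same-numbered libraries deviated together for 25 µM against 2i (correlations over genes of 0.155 to 0.314), 50 µM against 2i (0.115 to 0.249) and 50 against 25 µM (0.134 to 0.286). The numbers were therefore taken to pair them, from the data and not from the labels. All the same, the main values, errors and calls came from the fit without this pairing. Those with it are given as the replicate block. By a cutoff on the lowest correlation, the numbers were not taken to pair libraries against primed cells (lowest 0.0115 to 0.0908). For 2i against primed the correlations were still 0.0908 to 0.244, and each library correlated best with its own number.

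Members, lists and tests were chosen with earlier results of these data known. Named genes were the members, in each list and comparison the called gene of smallest p in each direction (or the smallest p where none was called), and the 5 genes nearest to Clk1. Ccnl2, Hnrnpa1, Hnrnpul2 and Pcbp2 were named after their values were seen. Not all genes taken by the rule are described.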

Additional observations from a re-analysis of the deposited data

How the results depend on the processing

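The CLK genes had 148 to 839 counts per library and the SR genes 783 to 4704. Under library totals the median of all genes was −0.05 for 50 µM against 2i, beside 0.01 under TMM.

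Members called higher in 2i against primed numbered 2 (Clk3 and Srsf5) with no low-count filter and 2 with the replicate block (Srsf5, edgeR adjusted p = 0.00107), and 1 to 2 without libraries. There the numbers were not taken to pair the samples, though every sample correlated best with its own number. At 25 µM against 2i the count was 1 in every removal. For 50 against 25 µM the block gave 1. For 25 µM against primed 1 member, Srsf7, was called lower by DESeq2 and 1 with the block, and Srsf5 was called higher with the block, library totals, no filter and 3 of the removals. At 50 µM against primed Clk2 was called with the block and without 50 µM replicate 1, and Srsf3 without 50 µM replicate 2.

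Genes called higher at 25 µM against 2i numbered 36 with library totals, 113 without the low-count filter, 328 with the block, 34 with 2 groups only and 10 to 58 without libraries. Those lower numbered 155 without the filter, 299 with the block and 19 to 82 without libraries. At 50 µM against 2i, 559 were higher with library totals, 1599 higher and 1641 lower with the block, and 505 to 744 higher without libraries. Between the doses 71 were higher and 258 lower without the filter, 168 higher and 374 lower with the block, and 6 to 47 higher and 32 to 191 lower without libraries. The cause was not tested.

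Signs turned only for members not called. With library totals, Srsf1 was −0.0242 at 25 µM and −0.0168 at 50 µM against 2i, Srsf2 0.0221 in 2i against primed and −0.00873 between the doses, and Srsf7 −0.0113 between the doses. With upper-quartile scaling Srsf7 between the doses was −0.00474. Srsf2 in 2i against primed was 0.0054 without the filter and 0.000544 with 2 groups only.

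Without libraries, at 25 µM against 2i Srsf1 ran from −0.0229 to 0.0423, Srsf2 from −0.0259 to 0.111 and Srsf5 from −0.116 to 0.192. At 50 µM against 2i Srsf1 ran from −0.00433 to 0.0784, Srsf2 from −0.0166 to 0.172 and Srsf3 from −0.00428 to 0.174. Between the doses Clk1 ran from −0.0241 to 0.25, Srsf1 from −0.00555 to 0.0606, Srsf2 from −0.065 to 0.114, Srsf3 from −0.0429 to 0.117, Srsf6 from −0.00813 to 0.0922 and Srsf7 from −0.0203 to 0.0681. In 2i against primed Srsf2 ran from −0.0729 to 0.0366. At 25 µM against primed Clk2 ran from −0.155 to 0.00988 and Srsf2 from −0.0337 to 0.103. At 50 µM against primed Srsf1 ran from −0.0862 to 0.0369 and Srsf2 from −0.0164 to 0.164.

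The 5 genes nearest to Clk1 held their places under a prior count of 0.5 and under library totals.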
